A study of Mus musculus with 6 samples.

Results

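The cells sequenced here were B16F10luc2, a mouse melanoma line, grown in Bioflex plates, whose elastic floor can be pulled. In 3 libraries the cells had been under cyclic stretch for 24 h, at 15% elongation in all directions of the plane and 15 cycles per minute with stretch and rest of equal length. In 3 libraries the cells had stayed static in plates of the same kind. Both groups shared the line, the medium with fetal bovine serum and the gas conditions, so every result is about 1 cell line. No label says whether replicates were separate cultures, so p-values cover the spread of these samples alone, and that spread may be technical. Described here are 43 genes of DNA damage signalling and repair, listed by name and pathway, with no threshold on a measured value, though the list was drawn up with earlier results of these data known. All 43 were among the 14883 genes of the table and among the 12377 genes tested. The least covered member still had 103 counts in its lowest library. Values by library are given throughout in the order of replicates 1, 2 and 3, as CPM, the count divided by the scaled size of its library.

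A break or a blocked fork in DNA is first sensed by protein kinases, which stall the cell cycle and call in repair. Breaks that run through both strands are either copied back from the sister chromatid, by homologous recombination after DNA replication, or rejoined end to end. The Fanconi anaemia proteins unhook crosslinked strands, mismatch repair corrects copying errors, and the excision pathways cut out damaged bases or stretches of 1 strand. Many genes of recombination and of the Fanconi pathway are known to be transcribed more as cells enter S phase, when sister chromatids become available.

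Under stretch, 25 of the 43 genes were higher and 4 were lower by the quasi-likelihood test of edgeR, with calls made at an adjusted p under 0.05. These 29 calls are 67.4% of the members, beside 50.9% of all genes. Of all genes tested 24.9% were called higher and 25.9% lower. The share of members called higher (58.1%) lay above that background and the share called lower (9.30%) below it. The CPM ranges of the groups did not overlap for 27 members that were higher and 4 that were lower under stretch, against 29.0% and 29.4% of all genes (58.5% together). Most differences were small. The median log2 fold change of the members was 0.19, a 1.14-fold difference, beside 0.0038 for all genes tested, and 2 members, Ankle1 and Palb2, differed by more than 1.5-fold. When a difference had to exceed 1.2-fold (glmTreat in edgeR), 8 members were higher and 0 lower, beside 5.49% and 7.38% of all genes. These 8 were Atr, Brca2, Palb2, Xrcc3, Blm, Fanca, Fanci and Ankle1. Without that margin, 22 of the 29 calls held in each of the other 16 settings tried. Scaling by library size alone gave 28 members higher and 3 lower, and 4117 higher (33.3%) against 2401 lower (19.4%) over all genes, beside 3087 and 3211 with TMM. In bulk RNA a larger share of cells in one phase of the cycle and more RNA per cell cannot be told apart.

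**Figure D1:**
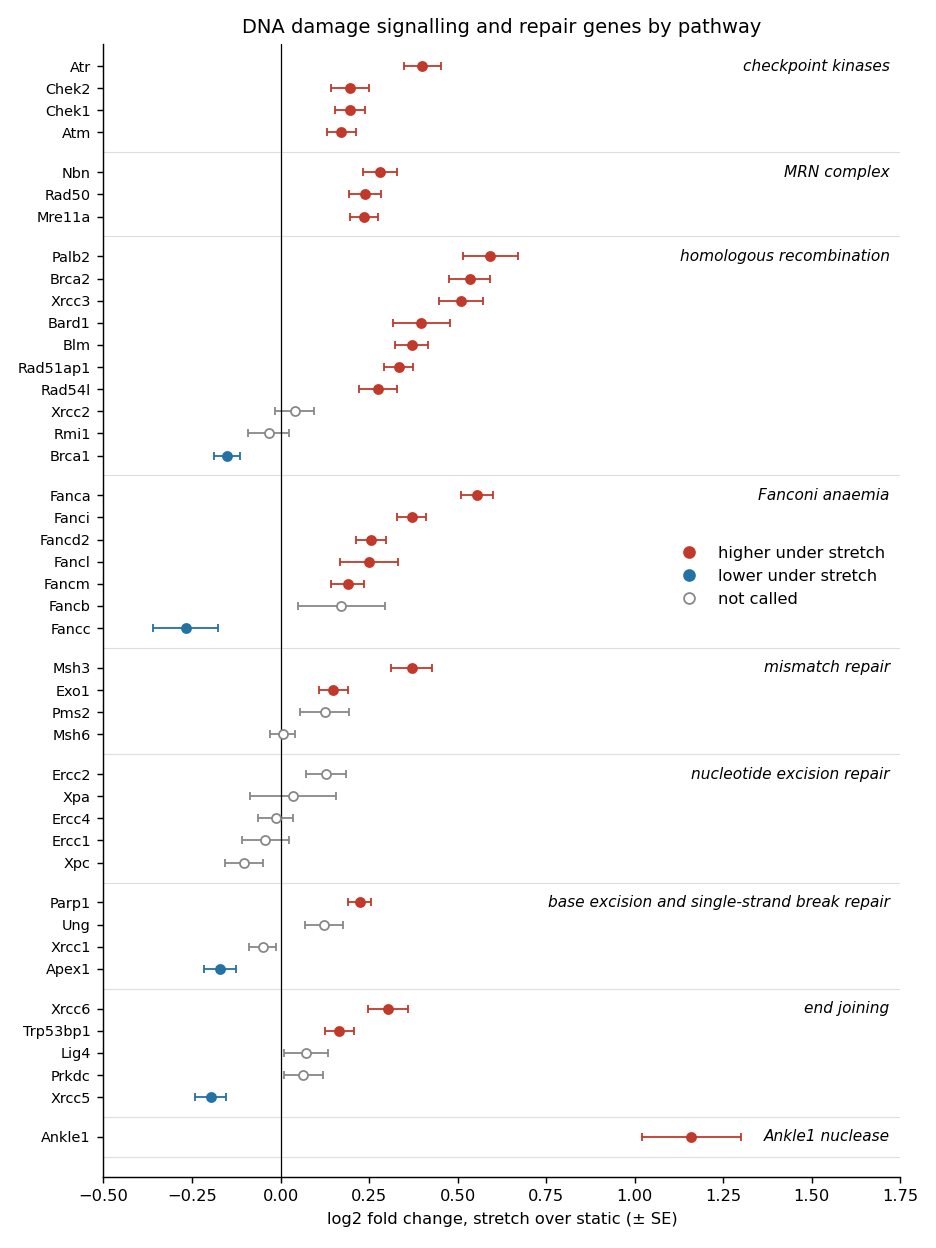
Log2 fold change, stretch over static, of each of the 43 genes with its standard error, in blocks by repair pathway; red marks genes higher under stretch, blue genes lower, and open grey circles genes not called at an adjusted p under 0.05. The 4 checkpoint kinases and the 3 MRN genes all lie right of 0, the 5 nucleotide excision repair genes lie round 0, and Ankle1 stands apart at 1.16.

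Cell cycle genes and genes induced by damage differed between the groups as well. All 16 listed G2 and M phase genes were higher under stretch (median log2 fold change 0.44), and their summed level was 4280.1 to 4315 CPM in stretched and 2699 to 2883 CPM in static libraries. Of 18 S phase genes 11 were higher and 1, E2f1, was lower (median 0.12). Ccnb1, the mitotic cyclin, had 195.0, 193.0 and 199.8 CPM in stretched cells, against 135, 142 and 137 CPM in static cells (log2 fold change 0.51, adjusted p = 3.56e-08). Tk1, thymidine kinase, averaged 165 ± 4.52 CPM in stretched and 124 ± 4.68 CPM in static cells (log2 fold change 0.41, adjusted p = 7.93e-07). Their part in the values of the repair genes was not tested. Of 13 tested genes that p53 induces after damage, 9 were lower and none higher (median -0.33). The 4 not called had log2 fold changes from -0.13 to 0.029. Beside the counts of these lists, 24.9% of all genes tested were higher and 25.9% lower. Cdkn1a, the cell cycle inhibitor p21, had 130.4, 128.0 and 129.4 CPM in stretched cells, against 224, 236 and 199 CPM in static cells (log2 fold change -0.76, adjusted p = 2.20e-08). Mdm2, the ubiquitin ligase of p53, averaged 96.7 ± 4.22 CPM in stretched and 117 ± 2.92 CPM in static cells (log2 fold change -0.28, adjusted p = 5.21e-05). Gadd45a, a damage-inducible growth arrest gene, had 6.85, 7.38 and 7.39 CPM in stretched cells, against 19.2, 17.1 and 18.0 CPM in static cells (log2 fold change -1.34, adjusted p = 5.10e-09).

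The line was checked against its markers. Tyr, Tyrp1, Dct, Pmel, Mlana and Mitf, the genes of the pigment cell lineage, summed to 19196 to 19757 CPM in stretched and 21712 to 24069 CPM in static libraries. Singly, Tyrp1, Dct and Pmel were lower under stretch, Mitf was higher (log2 fold change 0.37), and Tyr and Mlana were not called. The 4 fibroblast genes in the table summed to 15.7 to 17.2 CPM in stretched and 13.0 to 17.9 CPM in static libraries. The 2 leukocyte genes summed to 1.15 to 1.37 CPM in stretched and 1.16 to 1.49 CPM in static libraries. Cdh1 (epithelium) and Pecam1 (endothelium) stayed below 1 CPM in every library. Ptprc, Cd3e, Epcam and Krt8 were sought as well but were not found among the genes of the table. Total counts ran from 20494344 to 36351400 in stretched and from 19469286 to 30042222 in static libraries.

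Promoters were read for the letters of 3 elements that serve cell cycle genes. The RefSeq table (GRCm38.p6) gives 250 bases before and 50 after the start of 36 of the 43 genes. The E2F type element, the site of the factors that switch on S phase genes, was searched as TTTGGCGC, TTTCCCGC, TTTGCCGC or TTTCGCGC. The CHR type element of late cell cycle genes was searched as TTTGAA or TTTAAA, and the CCAAT box as CCAAT, each on both strands. An E2F type match lay in the promoters of 7 of the 36 members (19.4%), against 4.79% of 9892 tested genes and 2.60% of all 27025 genes in the promoter table. These 7 were Bard1, Brca2, Chek2, Msh3 and Xrcc6, which were higher under stretch, and Msh6 and Rmi1, which were not called. By call, a match lay in 5 of 21 higher members (23.8%), 2 of 11 not called (18.2%) and 0 of 4 lower. A CCAAT match lay in 23 of 36 members (63.9%, against 43.3% of tested and 41.1% of all genes), and a CHR type match in 5 of 36 (13.9%, against 22.4% and 30.6%). A match of letters is not a bound site, and a window without one says nothing about a factor. Sequences below run 5′ to 3′ on the strand of the gene, in lower case with the matches in capitals, and positions count from the transcript start of the promoter table, with -1 just before it. That start is not always the outer end of the gene span: it lies 26 bases inside the RefSeq span for Ankle1, 4 for Xrcc5, 169 for Bard1, 183 for Chek2, 324 for Brca2 and 28536 for Xrcc6, and at the end of the span for Brca1. The windows printed for Brca2, Chek2 and Xrcc6 therefore lie within the gene span, before a start that is not its outermost one.

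All 4 checkpoint kinase genes were higher under stretch, by 1.13-fold to 1.32-fold. Atr, the kinase that answers stalled forks and single-stranded DNA (Entrez Gene 245000; chromosome 9, 95857597 to 95953217 in GRCm38), changed most of the 4 and had 34.9, 35.5 and 36.8 CPM in stretched cells, against 27.7, 27.8 and 25.7 CPM in static cells. The lowest stretched library lay above the highest static one. Atr rose by 0.40 on the log2 scale (adjusted p = 1.52e-05, SE 0.052). Chek1, the effector kinase below Atr, had 49.9, 52.2 and 51.5 CPM in stretched cells, against 44.5, 45.8 and 43.8 CPM in static cells. In the test Chek1 had a log2 fold change of 0.20 (adjusted p = 0.00139, SE 0.042). Atm, the kinase that answers breaks through both strands, had 126, 128 and 116 CPM in stretched cells, against 109.8, 109.6 and 109.4 CPM in static cells. Atm rose by 0.17 on the log2 scale (adjusted p = 0.00292, SE 0.041). The static values of Atm lay within 1 CPM of each other and all 3 stretched libraries were above them. Chek2, the effector below Atm, had 31.7, 31.2 and 33.2 CPM in stretched cells, against 28.7, 26.4 and 28.3 CPM in static cells. In the test Chek2 had a log2 fold change of 0.20 (adjusted p = 0.00591, SE 0.052). With an offset for GC content and transcript length, described further on, Atm was not called (log2 fold change 0.016, adjusted p = 0.769), nor was Chek1 (log2 fold change 0.10, adjusted p = 0.0652), and the log2 fold change of Atr was 0.25. The Chek2 promoter held an E2F type match on the opposite strand at positions -152 to -145, and a window round it is shown for that reason (chr5:110839820-110839849, plus strand).
Chek2: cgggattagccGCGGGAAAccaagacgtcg

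The MRN complex of Mre11a, Rad50 and Nbn binds broken ends, trims them and activates Atm. All 3 genes were higher, by 0.24 to 0.28 on the log2 scale. Mre11a, the nuclease, had 63.2, 61.8 and 61.2 CPM in stretched cells, against 52.4, 54.2 and 51.9 CPM in static cells. Mre11a rose by 0.24 on the log2 scale (adjusted p = 0.000176, SE 0.040). Rad50, the ATPase that tethers ends, had 116.7, 119.8 and 114.2 CPM in stretched cells, against 94.0, 96.5 and 106 CPM in static cells. In the test Rad50 had a log2 fold change of 0.24 (adjusted p = 0.000485, SE 0.045). Static replicate 3 came nearest to the stretched range. Nbn, the adaptor that recruits Atm, had 59.6, 63.3 and 58.0 CPM in stretched cells, against 50.4, 46.5 and 51.3 CPM in static cells. Nbn rose by 0.28 on the log2 scale (adjusted p = 0.000191, SE 0.048). For none of the 3 did the groups overlap, and each was called in every setting other than glmTreat.

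In homologous recombination, the longest list, 7 of 10 genes were higher, 1 was lower and 2 were not called, with a median log2 fold change of 0.35. Palb2, the bridge that joins Brca1 to Brca2 (Entrez Gene 233826; chromosome 7, 122107262 to 122132980), had 16.2, 17.0 and 14.6 CPM in stretched cells, against 11.2, 10.3 and 10.3 CPM in static cells. That is 1.51-fold higher under stretch. In the test Palb2 had a log2 fold change of 0.59 (adjusted p = 1.72e-05, SE 0.077). Brca2, the tumour suppressor that works at the core of recombination, had 45.6, 46.3 and 41.5 CPM in stretched cells, against 28.8, 30.5 and 32.8 CPM in static cells. Brca2 rose by 0.53 on the log2 scale (adjusted p = 2.85e-06, SE 0.058). The stretched libraries of both genes lay above all static ones. Xrcc3, which acts in strand exchange, had 36.4, 36.3 and 34.1 CPM in stretched cells, against 25.5, 22.2 and 26.8 CPM in static cells. In the test Xrcc3 had a log2 fold change of 0.51 (adjusted p = 9.59e-06, SE 0.063). Its span shares 4653 bases with Klc1, a kinesin light chain gene that was higher too (log2 fold change 0.32, adjusted p = 1.90e-05), and without known strand the reads of the shared part cannot be told apart. Blm, the helicase that dissolves crossed strands, had 49.6, 53.1 and 49.3 CPM in stretched cells, against 37.6, 40.8 and 39.3 CPM in static cells. Blm rose by 0.37 on the log2 scale (adjusted p = 1.50e-05, SE 0.048). Rad51ap1, which stimulates the pairing of strands, had 53.8, 55.3 and 56.0 CPM in stretched cells, against 43.7, 43.1 and 43.8 CPM in static cells. In the test Rad51ap1 had a log2 fold change of 0.33 (adjusted p = 9.22e-06, SE 0.041). Rad54l, a motor that helps the invasion of the partner strand, averaged 38.5 ± 1.17 CPM in stretched and 31.8 ± 2.08 CPM in static cells. Rad54l rose by 0.28 on the log2 scale (adjusted p = 0.000643, SE 0.054).

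Brca1 was lower and its partner Bard1 higher. Brca1, the ubiquitin ligase that steers breaks towards recombination, had 186, 192 and 191 CPM in stretched cells, against 208, 218 and 205 CPM in static cells. Every stretched library was below every static one, by 1.11-fold on average. In the test Brca1 had a log2 fold change of -0.15 (adjusted p = 0.00286, SE 0.036). Scaled by library size alone its log2 fold change was -0.090 (adjusted p = 0.0314). Bard1, which forms the ligase together with Brca1, had 33.5, 34.0 and 31.7 CPM in stretched cells, against 27.3, 20.4 and 26.8 CPM in static cells. Bard1 rose by 0.40 on the log2 scale (adjusted p = 0.000846, SE 0.081). The low static replicate 2 widened its static range. Xrcc2, which acts in strand exchange as well, had 29.2, 29.7 and 28.7 CPM in stretched cells, against 27.3, 30.5 and 27.8 CPM in static cells, with overlapping groups (adjusted p = 0.567). Rmi1, a subunit of the complex that Blm works in, had 27.4, 28.4 and 26.0 CPM in stretched cells, against 26.8, 30.0 and 27.5 CPM in static cells (adjusted p = 0.648). The span of Rmi1 shares 1096 bases with Hnrnpk, which averaged 875 CPM in stretched and 783 CPM in static cells. Hnrnpk was higher under stretch (log2 fold change 0.16, adjusted p = 0.000856), and reads of the shared part cannot be told apart. Rmi1 was called lower once the offset was included (log2 fold change -0.14, adjusted p = 0.0459). Brca2 rose, Bard1 rose and Brca1 fell, and their promoters are shown to set the letters beside these directions. They are chosen cases: only 5 of the 21 higher members with a promoter held an E2F type match. A window of the Brca2 promoter (chr5:150522442-150522471, plus strand) is centred on an E2F type match on the opposite strand at positions -168 to -161. The bases before the start of Brca1 (chr11:101551956-101552145, minus strand) held a CCAAT match at positions -86 to -82 and no E2F type match. A window of the Bard1 promoter (chr1:71103149-71103206, minus strand) is centred on an E2F type match at positions -209 to -202. Outside this window the Bard1 promoter held a CHR type match at positions -242 to -237.
Brca2: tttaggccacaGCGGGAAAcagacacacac
Brca1: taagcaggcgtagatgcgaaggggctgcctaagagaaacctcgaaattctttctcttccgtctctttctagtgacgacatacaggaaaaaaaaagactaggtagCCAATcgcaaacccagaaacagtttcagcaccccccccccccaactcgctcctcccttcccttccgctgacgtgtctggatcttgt
Bard1: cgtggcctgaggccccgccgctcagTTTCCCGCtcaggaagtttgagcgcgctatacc

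**Figure D2:**
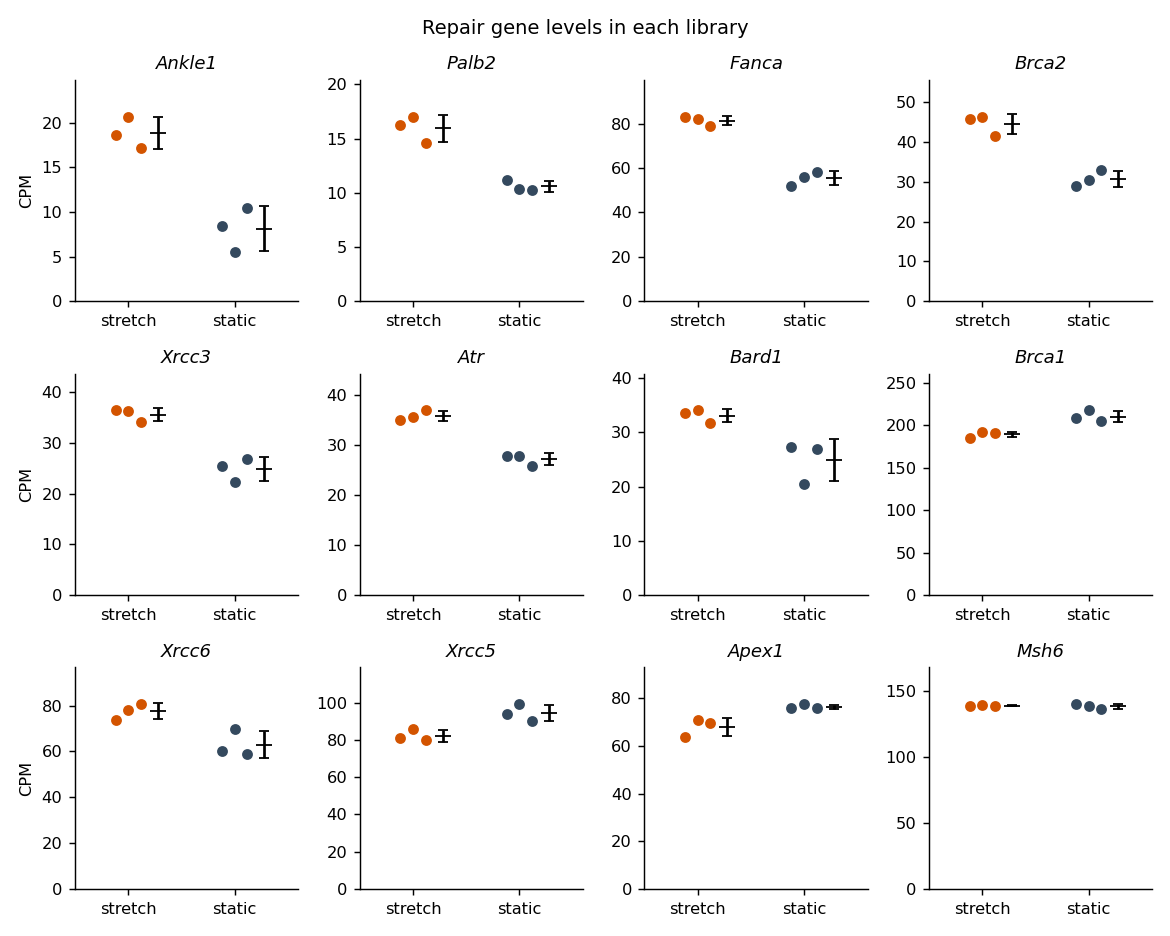
CPM of 12 repair genes in each library, stretched libraries left and static libraries right in each panel, with points in the order of replicates 1, 2 and 3 and the mean ± SD (n = 3) beside them; each axis starts at 0. Ankle1, Palb2, Fanca, Brca2, Xrcc3, Atr, Bard1 and Xrcc6 lie higher in every stretched library, Brca1, Xrcc5 and Apex1 lower in every stretched library, and the groups of Msh6 overlap.

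The Fanconi anaemia pathway marks stalled, crosslinked forks by attaching ubiquitin to Fancd2 and Fanci. Of its 7 genes 5 were higher, 1 was lower and 1 was not called (median log2 fold change 0.25). Fanca, a scaffold of the ubiquitin ligase core (Entrez Gene 14087; chromosome 8, 123266294 to 123318651), had 83.1, 82.0 and 78.9 CPM in stretched cells, against 51.96, 56.0 and 58.2 CPM in static cells, a 1.47-fold difference with the lowest adjusted p of the 43 genes. In the test Fanca had a log2 fold change of 0.55 (adjusted p = 1.71e-07, SE 0.046). It shares 4258 bases with Zfp276, a zinc finger gene that averaged 26.6 ± 1.92 CPM in stretched and 18.4 ± 3.30 CPM in static cells (log2 fold change 0.51, adjusted p = 0.000380). Both targets of the ligase were higher. Fanci had 60.5, 61.4 and 60.2 CPM in stretched cells, against 46.8, 48.9 and 45.6 CPM in static cells. Fanci rose by 0.37 on the log2 scale (adjusted p = 3.94e-06, SE 0.042). Fancd2 had 88.6, 85.6 and 89.1 CPM in stretched cells, against 74.7, 77.2 and 69.2 CPM in static cells. In the test Fancd2 had a log2 fold change of 0.26 (adjusted p = 0.000194, SE 0.044). Fancm, the helicase that brings the core to DNA, averaged 48.7 ± 2.39 CPM in stretched and 42.9 ± 0.513 CPM in static cells (log2 fold change 0.19, adjusted p = 0.00335), and it was not called with the offset (log2 fold change 0.088, adjusted p = 0.131).

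Fancl, the catalytic ligase subunit, was expressed at a lower level, 11.5, 11.7 and 12.5 CPM in stretched cells, against 10.2, 10.7 and 9.16 CPM in static cells, and its call was close to the threshold. Fancl rose by 0.25 on the log2 scale (adjusted p = 0.02, SE 0.082). This call was lost with DESeq2 (adjusted p = 0.0823), without static replicate 3 (0.0980), without stretch replicate 3 (0.0721), with counts thinned to the smallest library (0.0532) and under the offset (0.157). Fancc, a core subunit, was the gene that fell, with 12.2, 10.1 and 12.6 CPM in stretched cells, against 12.7, 14.5 and 15.0 CPM in static cells. In the test Fancc had a log2 fold change of -0.27 (adjusted p = 0.0236, SE 0.091). Here the call was lost without stretch replicate 2 (adjusted p = 0.114), without static replicate 3 (0.0814), with library size scaling (0.0800) and with the offset (0.0770). The span of Fancc shares 24763 bases with another gene, Aopep, which was not called (log2 fold change 0.11, adjusted p = 0.451). Fancb, an X-linked core subunit at the lowest level per length of all 43 genes, had 6.26, 5.75 and 5.99 CPM in stretched cells, against 6.20, 5.64 and 4.40 CPM in static cells, with overlapping groups (log2 fold change 0.17, adjusted p = 0.262).

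In mismatch repair, which corrects copying errors, 2 of 4 genes were higher and 2 were not called. Of all genes tested 24.9% were higher and 50.9% were called in either direction, and 4 genes are too few to set the pathway apart from these shares. Msh3, which recognises small loops, had 23.2, 25.04 and 23.4 CPM in stretched cells, against 18.4, 18.4 and 18.6 CPM in static cells. Msh3 rose by 0.37 on the log2 scale (adjusted p = 8.53e-05, SE 0.057). Msh6, which recognises single mismatches, was not called, with 139, 139 and 139 CPM in stretched cells, against 140.0, 138.6 and 136.7 CPM in static cells. In the test Msh6 had a log2 fold change of 0.0057 (adjusted p = 0.904, SE 0.034). All 6 libraries lay within 4 CPM of each other. Exo1, the exonuclease that removes the faulty strand and also resects broken ends, had 62.8, 61.8 and 60.8 CPM in stretched cells, against 54.2, 57.3 and 56.1 CPM in static cells. Exo1 rose by 0.15 on the log2 scale (adjusted p = 0.00618, SE 0.040). It was not called with the offset (log2 fold change 0.071, adjusted p = 0.182). Pms2, the endonuclease subunit, had 19.997, 20.4 and 17.5 CPM in stretched cells, against 17.3, 17.3 and 18.6 CPM in static cells and was not called. In the test Pms2 had a log2 fold change of 0.12 (adjusted p = 0.151). It was called higher without stretch replicate 3 (adjusted p = 0.0442) and with library size scaling (0.0487).

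No gene of nucleotide excision repair, the pathway that removes bulky damage such as that of ultraviolet light, was called among its 5 members (median log2 fold change -0.013). At an unadjusted p under 0.05 the count was 1, Ercc2, and DESeq2, which called 19.0% of all genes higher and 21.4% lower, also called 0 of the 5. Ercc1 and Ercc4 are the subunits of the nuclease that cuts beside the lesion. Ercc1 had 24.9, 21.3 and 24.9 CPM in stretched cells, against 23.7, 25.9 and 24.3 CPM in static cells. In the test Ercc1 had a log2 fold change of -0.042 (adjusted p = 0.618). Ercc4 had 33.8, 36.8 and 34.1 CPM in stretched cells, against 34.5, 35.8 and 35.3 CPM in static cells. In the test Ercc4 had a log2 fold change of -0.013 (adjusted p = 0.841). The groups of both overlapped. Xpc, the damage sensor, had 41.6, 39.6 and 46.5 CPM in stretched cells, against 44.7, 46.5 and 45.8 CPM in static cells. In the test Xpc had a log2 fold change of -0.10 (adjusted p = 0.128). Without stretch replicate 3, the stretched library with the highest value, it was called lower (-0.17, adjusted p = 0.0170). Xpa, which checks the lesion, was at a low level and varied more than it differed, with 6.69, 6.61 and 8.10 CPM in stretched cells, against 8.06, 5.75 and 6.68 CPM in static cells. In the test Xpa had a log2 fold change of 0.035 (adjusted p = 0.829). Ercc2, a helicase of the general transcription factor that opens the DNA, had 43.4, 42.7 and 42.3 CPM in stretched cells, against 39.3, 35.3 and 42.2 CPM in static cells. In the test Ercc2 had a log2 fold change of 0.13 (adjusted p = 0.0711, SE 0.056). Its groups just did not overlap. It was called higher without static replicate 3 (adjusted p = 0.00723), with upper quartile scaling (0.0497), with library size scaling (0.0222) and with the offset (0.000609).

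Of 4 genes of base excision and single-strand break repair, 1 was higher, 1 lower and 2 were not called. As 24.9% of all genes tested were higher and 25.9% lower, these counts do not set the pathway apart from that background. Parp1, which senses nicks and builds poly(ADP-ribose), was the most abundant member per length and had 347, 347 and 346 CPM in stretched cells, against 293, 303 and 294 CPM in static cells. The 3 stretched values lay within 1 CPM of each other. Parp1 rose by 0.22 on the log2 scale (adjusted p = 5.75e-05, SE 0.033). Apex1, the endonuclease that cuts at sites without a base, had 63.7, 70.9 and 69.5 CPM in stretched cells, against 75.8, 77.5 and 75.7 CPM in static cells and was lower in every stretched library. In the test Apex1 had a log2 fold change of -0.17 (adjusted p = 0.00467, SE 0.044). With library size scaling its log2 fold change was -0.11 (adjusted p = 0.0476). Xrcc1, the scaffold of nick repair, had 95.7, 94.5 and 98.8 CPM in stretched cells, against 103, 98.9 and 97.0 CPM in static cells, with overlapping groups (log2 fold change -0.051, adjusted p = 0.294). Ung, which removes uracil, had 24.4, 23.4 and 24.2 CPM in stretched cells, against 22.1, 21.6 and 22.4 CPM in static cells. All stretched values were above the static ones but the gene was not called (log2 fold change 0.12, adjusted p = 0.0711). It was called with library size scaling (adjusted p = 0.0131), with upper quartile scaling (0.0445) and after thinning (0.0455).

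In end joining, which ligates broken ends without a template, the 2 subunits of the Ku ring that grips the ends were called in opposite directions. Xrcc6 (Ku70) had 73.8, 78.1 and 80.6 CPM in stretched cells, against 60.1, 69.8 and 59.0 CPM in static cells, higher in every stretched library. Xrcc6 rose by 0.30 on the log2 scale (adjusted p = 0.000433, SE 0.057). Xrcc5 (Ku80) had 80.9, 85.8 and 80.04 CPM in stretched cells, against 93.8, 99.2 and 90.4 CPM in static cells, lower in every stretched library. In the test Xrcc5 had a log2 fold change of -0.20 (adjusted p = 0.00154, SE 0.043). The span of Xrcc6 shares 23736 bases with Desi1, a peptidase gene, which averaged 88.0 ± 2.72 CPM in stretched and 94.9 ± 4.26 CPM in static cells (log2 fold change -0.11, adjusted p = 0.0496), so its direction was opposite to that of Xrcc6. Trp53bp1, which shields ends from resection, had 67.0, 68.7 and 64.7 CPM in stretched cells, against 60.4, 58.0 and 60.1 CPM in static cells. Trp53bp1 rose by 0.17 on the log2 scale (adjusted p = 0.00307, SE 0.040). It was not called with the offset (log2 fold change 0.086, adjusted p = 0.0826). Its span shares 6765 bases with Map1a, a microtubule protein gene that was lower under stretch (log2 fold change -0.45, adjusted p = 6.52e-07). Prkdc, the kinase that Ku recruits, had 45.4, 45.7 and 42.1 CPM in stretched cells, against 39.3, 43.4 and 44.96 CPM in static cells. In the test Prkdc had a log2 fold change of 0.064 (adjusted p = 0.346). Lig4, the ligase of the pathway, had 24.3, 23.7 and 22.2 CPM in stretched cells, against 22.9, 23.4 and 21.0 CPM in static cells. In the test Lig4 had a log2 fold change of 0.072 (adjusted p = 0.347). The groups of both overlapped. The promoters of the Ku genes are shown side by side because the genes differed in direction. The window of Xrcc6 (chr15:82016312-82016341, plus strand) is centred on an E2F type match on the opposite strand at positions -46 to -39. Outside this window the Xrcc6 promoter held a CCAAT match on the opposite strand at positions 28 to 32, so a CCAAT match does not set the Ku genes apart. The promoter of Xrcc5 (chr1:72307171-72307420, plus strand) held a CHR type match at positions -235 to -230 and a CCAAT match on the opposite strand at -169 to -165, and no E2F type match.
Xrcc6: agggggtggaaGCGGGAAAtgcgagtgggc
Xrcc5: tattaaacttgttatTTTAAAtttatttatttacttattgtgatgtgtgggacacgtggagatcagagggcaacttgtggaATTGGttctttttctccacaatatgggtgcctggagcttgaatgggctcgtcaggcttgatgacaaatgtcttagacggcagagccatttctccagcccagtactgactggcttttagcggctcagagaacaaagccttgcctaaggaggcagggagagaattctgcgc

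Ankle1 differed most of the 43 genes. It encodes an endonuclease that, in human cells and worms, is known to act late in cell division on chromatin bridges (Entrez Gene 234396; chromosome 8, 71405986 to 71410728). It had 18.7, 20.7 and 17.2 CPM in stretched cells, against 8.49, 5.48 and 10.5 CPM in static cells. That is 2.23-fold higher under stretch. In the test Ankle1 had a log2 fold change of 1.16 (adjusted p = 7.63e-06, SE 0.14). The static libraries differed among themselves, with a coefficient of variation of 31.0%, against 9.26% in the stretched ones and a median of 4.62% over the members in static libraries. The static order of replicates 2, 1 and 3, low to high, was also that of Mki67, the proliferation antigen gene, with 834, 847 and 859 CPM in stretched cells, against 299, 242 and 428 CPM in static cells. Most of the 16 listed G2 and M phase genes had another static order, among them Ccnb1 with 135, 142 and 137 CPM. The order of 2, 1 and 3 held for 7 of the 43 members and 23.7% of all genes tested, and its part in the difference was not tested. Ankle1 was called in all 17 settings, also without each static library in turn, with log2 fold changes of 1.39 without static replicate 3 and 0.98 without static replicate 2. The promoter of this most changed gene (chr8:71405762-71406011, plus strand) held a CHR type match at positions -10 to -5. As the start used lies 26 bases inside the gene span, this match is within the span and not before it.
Ankle1: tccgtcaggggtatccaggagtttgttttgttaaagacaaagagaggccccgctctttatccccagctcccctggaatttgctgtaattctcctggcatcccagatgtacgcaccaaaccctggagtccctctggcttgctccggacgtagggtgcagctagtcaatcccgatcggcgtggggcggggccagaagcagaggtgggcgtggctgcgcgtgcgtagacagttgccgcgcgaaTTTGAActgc

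Ratios between partner genes, taken within each library, do not depend on how libraries are scaled. They were formed for 10 pairs, chosen with the values above known, as CPM per kb of the longest transcript over the same of the partner. The ratio of Xrcc6 to Xrcc5 was 0.707, 0.705 and 0.780 in stretched libraries and 0.497, 0.545 and 0.506 in static libraries, so the Ku genes shifted by 0.50 on the log2 scale. Bard1 over Brca1 gave 0.210, 0.206 and 0.193 in stretched libraries and 0.152, 0.109 and 0.152 in static libraries, a shift of 0.58. Rmi1 over Blm averaged 0.610 ± 0.0147 in stretched and 0.810 ± 0.0201 in static cells, a shift of -0.41 with groups that did not overlap. The bases that Rmi1 shares with Hnrnpk limit this ratio too. Msh3 over Msh6 averaged 0.172 ± 0.00665 in stretched and 0.133 ± 0.00232 in static cells. Parp1 over Xrcc1 averaged 2.35 ± 0.0552 in stretched and 1.94 ± 0.0823 in static cells. Fanci over Fancd2 averaged 0.822 ± 0.0267 in stretched and 0.759 ± 0.0204 in static cells. The groups of these 3 did not overlap either. In these 6 pairs the exact two-sided permutation p was 0.1, the smallest that 3 against 3 libraries can give, and 0.167 after adjustment over the 10 pairs, so none passes a threshold of 0.05. Rad50 over Mre11a averaged 2.07 ± 0.0543 in stretched and 2.06 ± 0.163 in static cells and Nbn over Mre11a 2.17 ± 0.103 in stretched and 2.09 ± 0.153 in static cells. Palb2 over Brca2 averaged 1.02 ± 0.0243 in stretched and 0.991 ± 0.106 in static cells and Ercc4 over Ercc1 0.398 ± 0.0561 in stretched and 0.384 ± 0.0120 in static cells. The groups of these 4 pairs overlapped, with exact permutation p of 1, 0.6, 0.7 and 1 before adjustment.

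**Figure D3:**
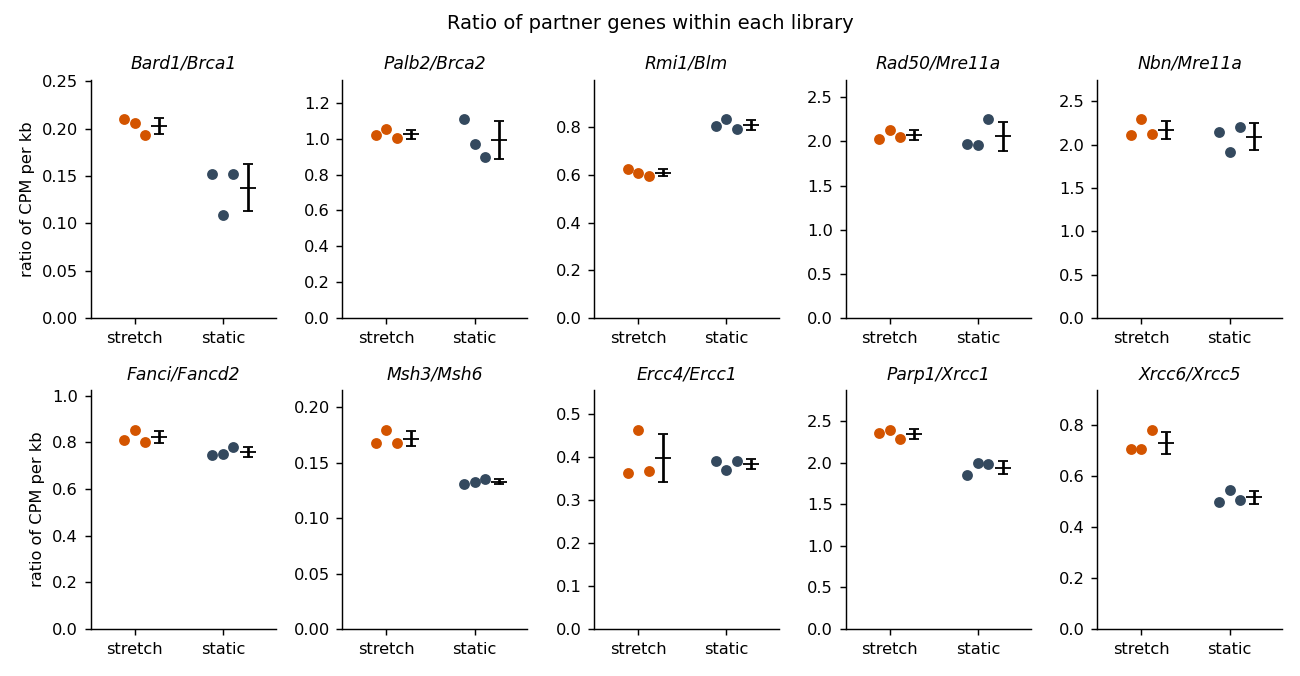
Ratio of CPM per kb between 10 pairs of partner genes in each library, stretched left and static right, with the mean ± SD (n = 3) beside the points; each axis starts at 0. Xrcc6 over Xrcc5 and Bard1 over Brca1 are higher in every stretched library, Rmi1 over Blm is lower in every stretched library, and the MRN pairs overlap.

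Set by level per length, the members ranged over more than an order of magnitude. Parp1 led with 89.5 CPM per kb in stretched and 76.7 CPM per kb in static cells, before Apex1 with 54.9 CPM per kb in stretched and 61.6 CPM per kb in static cells and Xrcc1 with 38.1 CPM per kb in stretched and 39.5 CPM per kb in static cells. At the low end Palb2 had 4.25 CPM per kb in stretched and 2.83 CPM per kb in static cells and Brca2 4.15 CPM per kb in stretched and 2.86 CPM per kb in static cells. Brca1 stood far above Brca2, at 28.8 CPM per kb in stretched and 32.0 CPM per kb in static cells, near Xrcc5 (32.2 CPM per kb in stretched and 37.0 CPM per kb in static cells) and Msh6 (32.7 CPM per kb in stretched and 32.6 CPM per kb in static cells). Atr, at 4.41 CPM per kb in stretched and 3.34 CPM per kb in static cells, lay below Chek1, at 13.5 CPM per kb in stretched and 11.8 CPM per kb in static cells. Fancb closed the order with 2.01 CPM per kb in stretched and 1.82 CPM per kb in static cells. The length is that of 1 annotated transcript, so these levels hold only as far as that transcript is the one expressed.

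The other genes of the same pathways were counted from a list of 110. Of these, 109 were tested, 46 were higher (42.2%) and 11 were lower (10.1%), with a median log2 fold change of 0.10. Over all genes tested 24.9% were higher and 25.9% lower. Calls in either direction made up 52.3% of the other genes, near the 50.9% of all genes. The counts by pathway that follow stand beside these shares of all genes. Among pathways with more than 1 such gene the median ran from 0.030 for 17 nucleotide excision genes to 0.13 for 15 checkpoint genes. In checkpoint signalling 8 of 15 were higher and 1 was lower. Topbp1, the activator of Atr, had 237, 232 and 232 CPM in stretched cells, against 185, 172 and 184 CPM in static cells (log2 fold change 0.38, adjusted p = 1.32e-06). Tipin, of the fork protection complex, averaged 77.4 ± 1.89 CPM in stretched and 60.6 ± 2.02 CPM in static cells (log2 fold change 0.35, adjusted p = 5.26e-06). H2ax, the histone phosphorylated at breaks, was the lower one, with 47.9, 46.4 and 52.1 CPM in stretched cells, against 67.0, 64.6 and 65.6 CPM in static cells (log2 fold change -0.43, adjusted p = 2.37e-06). Rbbp8, the partner of MRN in end resection, averaged 36.3 ± 0.343 CPM in stretched and 31.4 ± 1.31 CPM in static cells (log2 fold change 0.21, adjusted p = 0.00192). In recombination 12 of 30 were higher and 3 lower. Polq was counted in this list, though it is the polymerase of the error-prone joining of resected ends. It had 44.1, 44.1 and 41.6 CPM in stretched cells, against 30.1, 27.5 and 30.8 CPM in static cells. Its log2 fold change was 0.55 (adjusted p = 7.60e-07). Dna2, a resection nuclease, averaged 39.0 ± 1.25 CPM in stretched and 27.01 ± 2.50 CPM in static cells (log2 fold change 0.52, adjusted p = 5.62e-06). Babam1, a subunit of the complex that brings Brca1 to ubiquitin at breaks, and Sfr1, a cofactor of strand exchange, were lower (log2 fold change -0.23 and -0.15).

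Among Fanconi and bypass genes 5 of 13 were higher and 1 lower. Rev3l, the catalytic subunit of a polymerase that copies past damage, had 90.8, 92.3 and 85.4 CPM in stretched cells, against 58.3, 57.8 and 66.6 CPM in static cells (log2 fold change 0.55, adjusted p = 8.05e-07). Its partner Rev1 averaged 54.8 ± 1.11 CPM in stretched and 42.3 ± 3.52 CPM in static cells (log2 fold change 0.37, adjusted p = 4.71e-05). Faap20, a core subunit, was lower (log2 fold change -0.17, adjusted p = 0.0398). Of 4 other mismatch repair genes 2 were higher and 0 lower, among them Pms1, which averaged 26.9 ± 0.536 CPM in stretched and 22.5 ± 1.57 CPM in static cells (log2 fold change 0.26, adjusted p = 0.00215). In nucleotide excision repair, where no member was called, 7 of 17 other genes were higher and 3 lower. Ercc6, which clears stalled RNA polymerase, averaged 29.3 ± 1.08 CPM in stretched and 21.7 ± 2.61 CPM in static cells (log2 fold change 0.42, adjusted p = 0.000199). Uvssa, its partner in that branch, averaged 17.7 ± 0.960 CPM in stretched and 11.8 ± 2.30 CPM in static cells (log2 fold change 0.57, adjusted p = 0.000427). Ddb1, the adaptor of the damage-recognition ligase, had 691, 701 and 692 CPM in stretched cells, against 803, 856 and 764 CPM in static cells (log2 fold change -0.22, adjusted p = 0.000387). Rad23b, the partner of Xpc, was lower as well (log2 fold change -0.15, adjusted p = 0.00313). In base excision 8 of 20 were higher, led by Neil3, a glycosylase, with 18.6, 16.7 and 17.7 CPM in stretched cells, against 10.9, 11.1 and 12.04 CPM in static cells (log2 fold change 0.64, adjusted p = 4.26e-06), and Tdp1, which frees trapped topoisomerase (log2 fold change 0.36, adjusted p = 2.49e-05). Neil2, another glycosylase, was lower, with 4.68, 4.98 and 4.12 CPM in stretched cells, against 6.47, 6.71 and 7.75 CPM in static cells (log2 fold change -0.61, adjusted p = 0.000354), as was Parp3 (log2 fold change -0.19, adjusted p = 0.00538). In end joining 3 of 9 were higher and 1 lower. Rif1, which acts with Trp53bp1 against resection, averaged 148 ± 3.70 CPM in stretched and 116 ± 9.17 CPM in static cells (log2 fold change 0.35, adjusted p = 3.71e-05). Dclre1c, the end-trimming nuclease Artemis, averaged 13.8 ± 1.21 CPM in stretched and 10.0 ± 1.39 CPM in static cells (log2 fold change 0.44, adjusted p = 0.00139). Shld1, of the shieldin complex, was lower at a low level, 2.71 ± 0.318 CPM in stretched and 4.05 ± 0.226 CPM in static cells (log2 fold change -0.57, adjusted p = 0.00212).

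**Figure D4:**
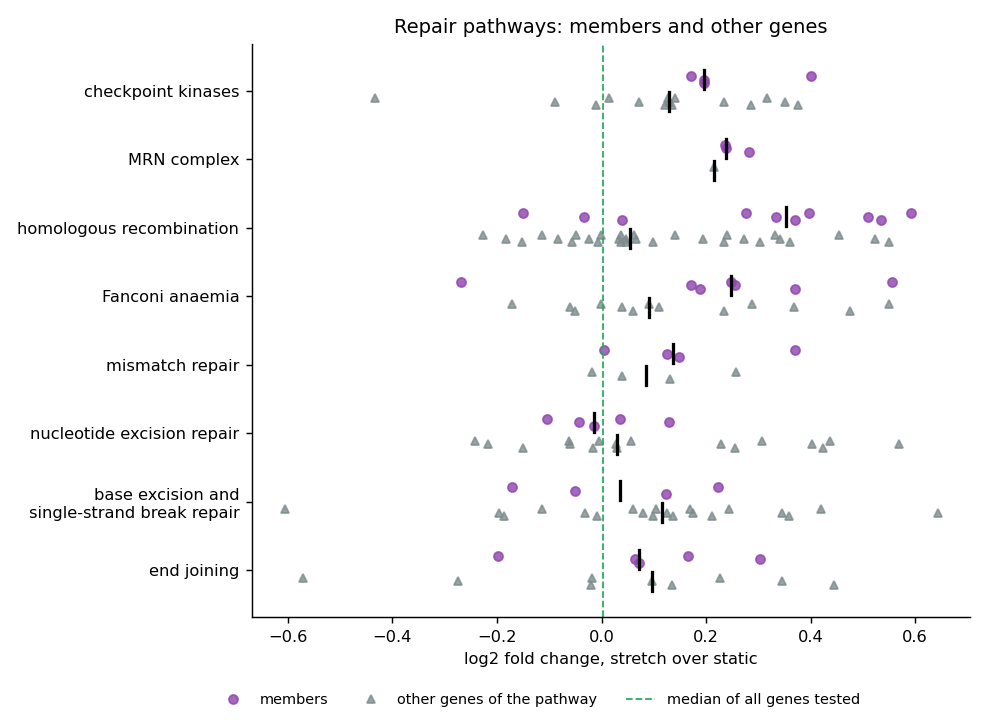
Log2 fold change, stretch over static, of the members (violet circles) and of the other tested genes of each pathway (grey triangles), with black bars at the medians and a dashed line at the median of all genes tested. Medians of the members are highest for homologous recombination (0.35) and near 0 for nucleotide excision repair (-0.013), while the medians of the other genes lie between 0.030 and 0.21.

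Base composition and length moved with the fold changes across all genes. The median log2 fold change of all tested genes was 0.12 for transcripts under 42% GC and -0.089 for those of 52% or more, and 0.069 for transcripts of 6000 bases or more. Members had a median GC content of 46.6% and a median length of 4251 bases, against 49.6% and 3383 bases over all tested genes. Within the GC bins the member medians were 0.20 for 5 genes under 42%, 0.19 for 7 genes from 42% to under 45%, 0.24 for 15 genes from 45% to under 48%, 0.021 for 6 genes from 48% to under 52%, and 0.18 for 10 genes of 52% or more. The members from 48% to under 52% thus had a median near 0, unlike those of the other bins. With an offset that takes these trends out of every library, 20 members were higher and 4 lower, beside 22.9% and 24.9% of all genes, and the median was 0.12. The calls lost were those of Atm, Chek1, Exo1, Fancc, Fancl, Fancm and Trp53bp1, and Ercc2 and Rmi1 were called in addition. An offset of this kind also removes any real difference that goes with length or GC content.

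**Figure D5:**
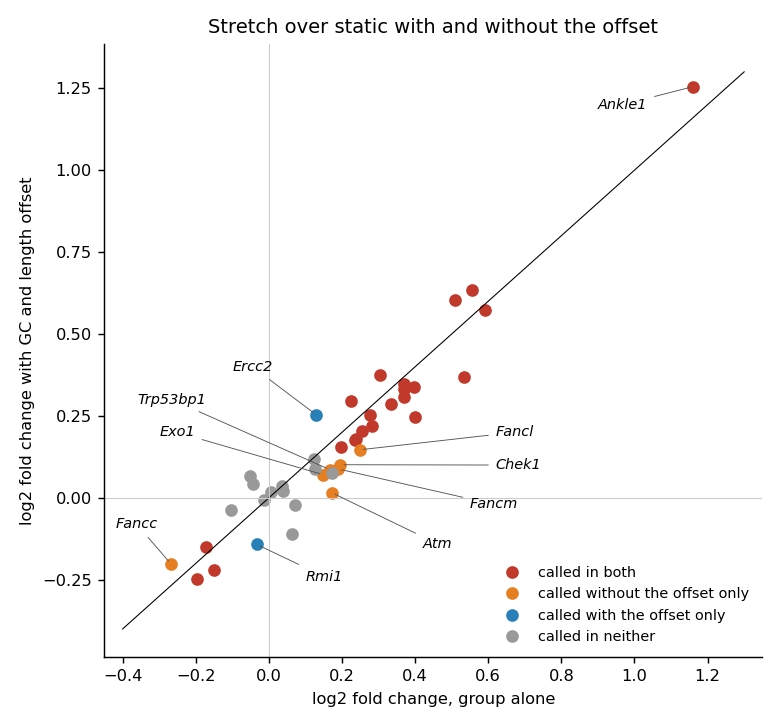
Log2 fold change, stretch over static, of the 43 genes from the model with the group alone (horizontal axis) and with the GC and length offset (vertical axis), coloured by whether the gene was called in both, either or neither; the line marks equal values. Ankle1 is at 1.16 and 1.25, and the 7 genes called without the offset only lie between -0.20 and 0.15 with it.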

How the data were processed

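Expression was compared between 3 stretched and 3 static samples of B16F10luc2 cells. The authors deposited 1 table of estimated counts, in whole numbers and without scaling across samples. Salmon 1.4.0 and 2 build names, mm10 and GRCm38, stand in the list per the submitters' processing notes, with no role attached. The index, the step to genes, the strand and the rounding: not given in the sources used here. By a model, such counts divide reads among similar or overlapping transcripts. The spans of 15 members overlap that of another tested gene, and not all of these overlaps are named above. Of the 28 members without such an overlap, 17 were higher and 3 lower. Every gene had at least 10 counts over the 6 libraries. No sample column was left unused.

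Entrez Gene numbers were matched to symbols and GRCm38.p6 positions through RefSeq (14875 of 14883). The filterByExpr function of edgeR 4.0.16 (R 4.3.3; minimum count 10) kept 12377 genes and removed 2506. TMM factors ran from 0.966 to 1.02. The quasi-likelihood fit to the whole-number counts had group as its sole term (4 residual degrees of freedom, biological coefficient of variation 3.6%), and genes with a two-sided Benjamini-Hochberg adjusted p under 0.05 over all tested genes were called. GC content and length came from the longest GENCODE M21 transcript (12135 tested genes, 98%). CPM use TMM-scaled sizes, and a value per kb divides by that length. The procedure was tested on simulated counts with 200 changed genes, whereas 6298 of the 12377 genes were called in the data. That test therefore does not show how scaling or false calls behave when so many genes differ.

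The lists of other genes, like the members, were chosen with earlier results of these data known. Named were all members, the 2 called genes of lowest p in each direction of each list of other pathway genes, and 7 cell cycle and damage genes. Alternatives, run with DESeq2 1.42.0 and limma 3.58.1 among others, are given in the closing section. Protein sequences were not used here. A few genes that these lists or rules would name are not reported here.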

Additional observations from a re-analysis of the deposited data

How the results depend on the processing

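The 29 member calls were refitted under 17 other settings. Members called higher numbered 25 in each fit that left out 1 library, and those called lower 3 to 5. Against a null of 1.2-fold the calls were 8 members higher and 0 lower, 10 and 3 other pathway genes, and 679 and 913 of all genes. Scaled by library size alone, medians were 0.25 over members, 0.064 over all genes, 0.26 for checkpoint kinases, 0.30 for MRN, 0.41 for recombination, 0.31 for Fanconi, 0.20 for mismatch, 0.047 for nucleotide excision and 0.10 for base excision genes; with the GC and length offset they were 0.12, -0.0032, 0.13, 0.18, 0.30, 0.15, 0.080, 0.035 and 0.093 in that order, and -0.021 for end joining. Upper quartile scaling gave 0.20 over members and 0.019 over all genes, where no count filter gave 0.0073 and DESeq2 0.0085. Leaving out 1 library gave medians of 0.16 to 0.20 over members, 0.0029 to 0.0067 over all genes, 0.23 to 0.29 for MRN, 0.31 to 0.37 for recombination, 0.20 to 0.29 for Fanconi and -0.052 to 0.021 for nucleotide excision genes. The sign turned only for members that were not called: with library size scaling for Rmi1 (0.026), Ercc1 (0.017), Ercc4 (0.047) and Xrcc1 (0.010); with the offset for Ercc1 (0.041), Xrcc1 (0.066), Lig4 (-0.021) and Prkdc (-0.11); with upper quartile scaling for Ercc4 (0.0019); with thinned counts for Msh6 (-0.0048); and without 1 library, with ranges over the 6 such fits, for Rmi1 (-0.067 to 0.0081), Msh6 (-0.0060 to 0.014), Ercc1 (-0.087 to 0.021), Ercc4 (-0.051 to 0.013) and Xpa (-0.055 to 0.17). The cause was not tested. The labels state no pairing, and replicate numbers were not treated as pairs. Same-numbered libraries correlated at -0.012, 0.0050 and -0.077 in their deviations from the group means. With 3 libraries a group, such values cannot tell unpaired libraries from pairs with a weak shared effect. A replicate block gave 25 members higher and 4 lower, and 2924 and 3043 of all genes, and changed no member's call. Among the 43 members, differences near the 1.11-fold of Brca1 were the smallest called. Genes outside the members were called at smaller ones, such as Dct (log2 fold change -0.090, adjusted p = 0.0354).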
